A study of Mus musculus with 12 samples.

Results

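The regions described here were the sites of open chromatin at 38 genes of DNA damage response and repair, in mouse hematopoietic stem cells (HSCs). The assay was ATAC-seq, whose transposase cuts and tags DNA that is not wrapped away. The 12 libraries formed 4 groups of 3, young (3 months) WT, young Mlkl-/-, aged (18 months) WT and aged Mlkl-/-, all on the C57BL/6 background. MLKL is the pseudokinase effector of necroptosis, and the comparisons asked how accessibility differed with age and with loss of Mlkl. Each library was a pool of sorted HSCs from several mice of one group, with more mice per pool at the young age, so a pool and not an animal was the replicate. The Mlkl deletion was present in the whole animal, and no group carried any other allele or treatment.

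Each library was available as a list of peak summits whose score is the −log10 of a q-value. Summits with a score of at least 3 were widened by 250 bp on each side and merged over the lists into 71006 regions. A region belonged to a gene when its strongest summit lay in the gene body or within 10 kb of it. The 38 genes held 123 of the 71006 regions. Of these, 41 lay within 1 kb of a start of the gene itself (promoters), 20 lay within 1 kb of a start of another gene, and 62 were distal. Among the distal regions 47 lay in introns and 10 between genes. Fancc, whose protein belongs to the Fanconi anaemia core complex, had 15 regions, 12 of them distal, whereas 12 genes, among them Atm, Parp1, Mre11a and Trp53bp1, had no distal region at all.

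As background, cells meet DNA lesions with separate repair systems. Breaks through both strands are sensed by the MRN complex and the kinases ATM and ATR and are then sealed by end joining or by homologous recombination. Damaged or mismatched bases are cut out by base excision, mismatch or nucleotide excision repair, and crosslinks between strands need the Fanconi anaemia proteins. HSCs are mostly quiescent and persist for life, and loss of several of these genes is known to exhaust the HSC pool.

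Lists differed in length, from 35714 to 61495 summits, and aged lists (47032 to 61495) were on the whole longer than young ones (35714 to 56368). To set lists side by side, regions were ranked within each list by score, each list was cut at its 28428 best regions (28113 to 28761 after ties), and the ranks were turned into normal scores, on which 0 is the middle rank and uncalled regions share a floor of −0.53 to −0.52. Depth cannot be read from the lists, so no counting interval was possible. In these pooled cells, fewer cells with an open site and less opening per cell cannot be told apart. Of the HSC markers reported here, a summit lay at the starts of Kit, Hlf and Meis1 in all 12 lists, of Procr in 9, Ly6a in 6, Mecom in 5 and Slamf1 in 0. The starts of Cd79a, Cd3e, Cd8a, Mpo, Elane, S100a8, Ly6g, Klf1, Slc4a1, Hba-a1 and Cdh5 had none in any list, while Ebf1, Pf4 and Gp1ba had one in all 12, Col1a1 in 11, Itgam in 3, and Cxcl12 and Lepr in 2 each. Some of these starts were called more often in the longer aged lists: Procr in 3 young and 6 aged lists, Mecom in 1 and 4, Ly6a in 2 and 4, and Cxcl12 and Lepr in 0 and 2 each. Their part in the age results was not tested. The Mlkl start carried a summit in 3 of 3 lists of every group, so it does not check the genotype labels. Summits at Y-linked genes were present in 3 of 6 young and 0 of 6 aged lists.

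The promoters of the repair genes were open in nearly every library. A promoter summit with a score of at least 3 was present in all 12 lists for 37 of the 38 genes (97.4%), and in 11 lists for Fancg, against 49.2% of 21938 protein-coding genes. In the lists of equal length the numbers were 35 of 38 genes (92.1%) against 40.8%, with Ung open in 11 and Fancg and Rad50 in 10 each. The median rank of a repair gene promoter was at percentile 92.3 of all regions, from 69.4 for Rad50 to 99.7 for Prkdc. For the 10761 other protein-coding promoters open in all 12 lists the median was 88.4 and the middle 50% ran from 80.0 to 94.4, and 27 of the 38 repair genes lay above that median. These shares describe the list of genes, which was not drawn at random.

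**Figure D1:**
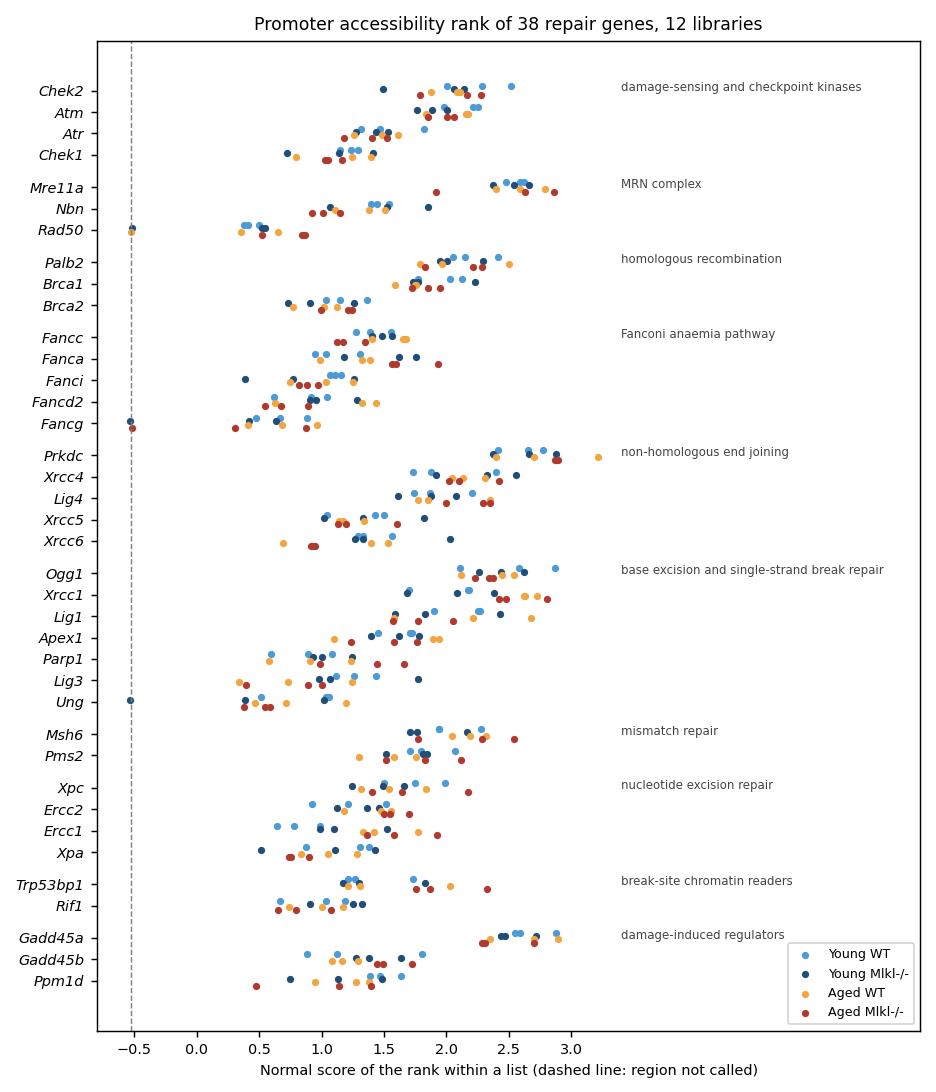
Normal score of the within-list rank (horizontal axis, no unit) of the main promoter region of each of 38 repair genes, grouped by role, with 1 point per library (12 per gene) coloured by group. Dashed line, the floor shared by uncalled regions. Prkdc, Gadd45a and Mre11a rank highest, points of all 4 groups intermix in most rows, and points reach the floor for Rad50, Fancg and Ung.

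Promoter ranks differed widely within some repair systems, while those of mismatch and nucleotide excision repair lay closer together. Prkdc, the catalytic subunit of DNA-PK in end joining, had the highest promoter, with normal scores of 2.37 to 3.22 (mean 2.73 ± 0.25 SD, n = 12 libraries). Its partners in the same reaction followed at a distance: Xrcc4, the scaffold of ligase IV, at 2.15 ± 0.25 and Lig4, the ligase, at 2.00 ± 0.25, and the Ku subunits Xrcc5 and Xrcc6 at 1.31 ± 0.24 and 1.27 ± 0.36. The range of Xrcc5 lay within that of Xrcc6, and Prkdc lay above both in every library.

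In the MRN complex, which binds broken ends first, the 3 subunits differed most. The promoter of the nuclease Mre11a stood at 2.54 ± 0.24, that of Nbn, which recruits ATM, at 1.33 ± 0.27, and that of the ATPase Rad50 at 0.38 ± 0.45, the lowest of the 38. The lowest Mre11a value (1.91) exceeded the highest Nbn value (1.85) and the highest Rad50 value (0.87). Among the kinases, Chek2 (2.07 ± 0.26) and Atm (2.02 ± 0.16) ranked above Atr (1.44 ± 0.17) and Chek1 (1.14 ± 0.21), and within each of these pairs the libraries overlapped.

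For homologous recombination, Palb2 (2.12 ± 0.23), which bridges the proteins of Brca1 and Brca2, and Brca1 (1.86 ± 0.19) lay above Brca2 (1.07 ± 0.20), with no overlap between Brca2 and either. The Fanconi anaemia genes ran from Fancc (1.42 ± 0.18) and Fanca (1.39 ± 0.31), in the middle of the 38, through Fanci (0.95 ± 0.25) and Fancd2 (0.94 ± 0.29) to Fancg (0.44 ± 0.50). Msh6 (2.08 ± 0.26) and Pms2 (1.74 ± 0.23), a recognition subunit and a nuclease of mismatch repair, were both above percentile 96. In base excision repair the glycosylase Ogg1 (2.41 ± 0.22), the scaffold Xrcc1 (2.33 ± 0.37) and the ligase Lig1 (2.01 ± 0.36) stood highest, the abasic endonuclease Apex1 (1.60 ± 0.26) in between, and Parp1 (1.05 ± 0.31), Lig3 (1.02 ± 0.41) and the uracil glycosylase Ung (0.61 ± 0.46) lowest.

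The nucleotide excision repair promoters lay close together, from the damage sensor Xpc (1.63 ± 0.27) through the helicase Ercc2 (1.38 ± 0.22) and the nuclease subunit Ercc1 (1.28 ± 0.39) to Xpa (1.01 ± 0.29). The chromatin readers that steer break repair, Trp53bp1 and Rif1, stood at 1.58 ± 0.39 and 0.98 ± 0.23. Of the 3 damage-induced regulators, Gadd45a (2.58 ± 0.21) had the second highest promoter of all 38, above Gadd45b (1.36 ± 0.28) and the phosphatase Ppm1d (1.21 ± 0.34) in every library.

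Many of these promoters are shared. The promoter region also held the start of another protein-coding gene for 14 of the 37 genes open in all 12 lists (37.8%), against 20.3% of the 10761 others, so the accessibility at these sites cannot be given to either gene alone. Such neighbours included Npat at Atm, Nbr1 at Brca1, Mcm4 at Prkdc, Hscb at Chek2 and Dctn5 at Palb2.

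Distal regions were far less constant. Of the 62 distal regions 9 were called in all 12 lists (14.5%, against 17.8% of the 52638 distal regions in the catalogue), 15 in a single list, and 23 in none of the equal-length lists. The 9 lay near Brca1, Ercc2, Fancc, Fanci, Lig1, Rad50 and Xpc, and 2 of them in Xrcc4. Young lists called 14 to 40 of the 62 (mean 26.2 ± 8.86 SD, n = 6) and aged lists 25 to 39 (33.2 ± 6.34, n = 6). As shares of the 62 these means were 42.2% and 53.5%, beside 42.7% and 56.3% of all distal regions in the catalogue, so the repair genes followed the catalogue. At equal length the counts were 17.8 ± 3.06 and 16.5 ± 2.35.

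For tests, the normal scores of the 36296 regions called in at least 3 equal-length lists were fitted together in limma, with Benjamini-Hochberg adjustment over all of them and a threshold of 0.01. The repair genes had 78 such regions: 39 promoters, 13 starts of other genes and 26 distal regions. Of the 45 not tested, 17 were called in 1 list only.

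With age over both genotypes, 1 repair gene region rose and 1 fell. The region that fell passed the filter through its young lists alone, as described below. These 2 of 78 regions (2.56%) compare with 961 of all 36296 (2.65%; 607 higher and 354 lower in aged HSCs), so the repair genes were called no more often than the rest. An unadjusted p under 0.05 was reached by 13 of 78 (16.7%) against 22.1% of all regions. The median change, aged minus young, was −0.00 over the 78 regions and −0.01 over all. Promoters moved little, with a median absolute change of 0.11 for a median standard error of 0.15, and distal regions 0.22 for 0.25.

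The region that rose lay in an intron of Xrcc4 (chr13:90009710-90010263, mm10), 79.6 kb from the gene's start, in a gene of 316 kb on the minus strand. XRCC4 holds DNA ligase IV at broken ends in non-homologous end joining. The 300 bases at its summit (chr13:90009842-90010141, plus strand) are shown because this was the only called gain, with the CHR motif letters TTTGAA, on either strand, in capitals.
Xrcc4 intron: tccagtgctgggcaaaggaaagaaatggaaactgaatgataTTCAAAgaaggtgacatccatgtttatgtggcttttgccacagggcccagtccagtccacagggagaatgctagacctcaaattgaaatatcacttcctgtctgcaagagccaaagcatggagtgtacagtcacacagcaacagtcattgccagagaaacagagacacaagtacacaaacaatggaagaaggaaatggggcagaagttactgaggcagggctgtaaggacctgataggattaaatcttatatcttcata
Its normal scores were 0.97, 1.08 and 1.24 in young WT, 1.33, 1.06 and 0.83 in young Mlkl-/-, 2.16, 1.32 and 2.31 in aged WT, and 2.30, 1.62 and 1.68 in aged Mlkl-/- HSCs. The highest young value (1.33) just passed the lowest aged one (1.32), and the other 5 aged libraries lay above every young library. The change was 0.81 ± 0.17 (SE; adjusted p = 0.00689, limma), with 0.83 ± 0.24 in WT (adjusted p = 0.0778) and 0.79 ± 0.24 in Mlkl-/- (adjusted p = 0.100). The deposited scores ran from 9.6 to 25.1 in young and from 25.5 to 53.9 in aged lists. The promoter of Xrcc4 and the other distal region of the gene that was tested were not called.

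The region that fell lay in an intron of Xpc (chr6:91505970-91506565), 9.63 kb from the start. XPC is the sensor that starts nucleotide excision repair across the genome. The 300 bases at its summit (chr6:91506111-91506410, plus strand) hold none of the motifs searched here and are shown as the only called loss.
Xpc intron: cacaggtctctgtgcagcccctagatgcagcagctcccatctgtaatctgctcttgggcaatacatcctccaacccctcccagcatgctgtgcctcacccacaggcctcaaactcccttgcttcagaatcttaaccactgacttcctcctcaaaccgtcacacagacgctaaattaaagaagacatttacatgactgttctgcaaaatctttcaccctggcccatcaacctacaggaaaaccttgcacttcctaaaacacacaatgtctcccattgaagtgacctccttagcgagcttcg
Normal scores were 0.51, 0.26 and 0.37 in young WT and 0.79, 0.31 and 0.26 in young Mlkl-/- HSCs, and the region was at the floor in all 6 aged equal-length lists. At equal length every young list (6 of 6) and no aged list (0 of 6) thus called it, at the low end of the called ranks. The region entered the test through its young lists alone, and its aged values are all the shared floor, so the change below measures the distance of the young ranks from the cut. The change was −0.94 ± 0.20 (SE), with −0.91 ± 0.29 in WT and −0.98 ± 0.29 in Mlkl-/-. Over both genotypes it passed the threshold of 0.01 and is counted as called. No p is given, since it would measure a distance from the floor. In the lists of full length it was still called in 3 of 6 aged libraries, with scores of 7.8, 7.8 and 5.5, within the young range of 3.3 to 13.5. The Xpc promoter was open in all 12 lists.

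Both calls lay close to the threshold, and Xpc was the less stable. Over the alternatives run, the Xpc call held in 3 of 25 and the Xrcc4 call in 11 of 26. Both tallies include an adjusted p of 0.05 and genes with 2 kb on each side. Those settings reuse the main fit, so both calls had to hold there. Apart from them, only the scale of percentiles kept the Xpc call. The Xpc region was not called with all deposited scores, with windows of 100 bp or with the replicate block. Nor was it called when regions called in at least 1 list or at least 6 lists were tested. Xrcc4 was called in each of these. Leaving out 1 library at a time kept neither call in 11 of 12 cases, and kept Xrcc4 without Aged WT replicate 2 (the lowest aged value). Without a library the change stayed between 0.71 and 0.96 at Xrcc4 (adjusted p 0.00167 to 0.0264, limma) and between −0.97 and −0.77 at Xpc. With list length as a covariate no repair gene region was called, and 67 of all 36296 regions were. The change was then 0.64 at Xrcc4 (adjusted p = 0.142, limma) and −0.99 at Xpc. With the presence or absence of Y-linked summits as a covariate no repair gene region was called, against 296 of all. The changes were then 0.85 at Xrcc4 (adjusted p = 0.0392, limma) and −0.82 at Xpc. At Xrcc4 the change thus kept most of its size where the call was lost. At Xpc the change measures the distance of the young ranks from the floor, so its steady size adds no support for the call.

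The Xpc intron was also the only repair gene region called in 3 of 3 lists of one age and 0 of 3 of the other, in WT as well as in Mlkl-/- cells (1 of 78 each, against 4.36% and 4.03% of all regions). Young and aged values were fully separate, 6 against 6, at 2 of the 78 regions, the Xpc intron and the Xrcc1 promoter, against 3.76% of all. For the Xpc intron both counts rest on the same floor values and add no further support.

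**Figure D2:**
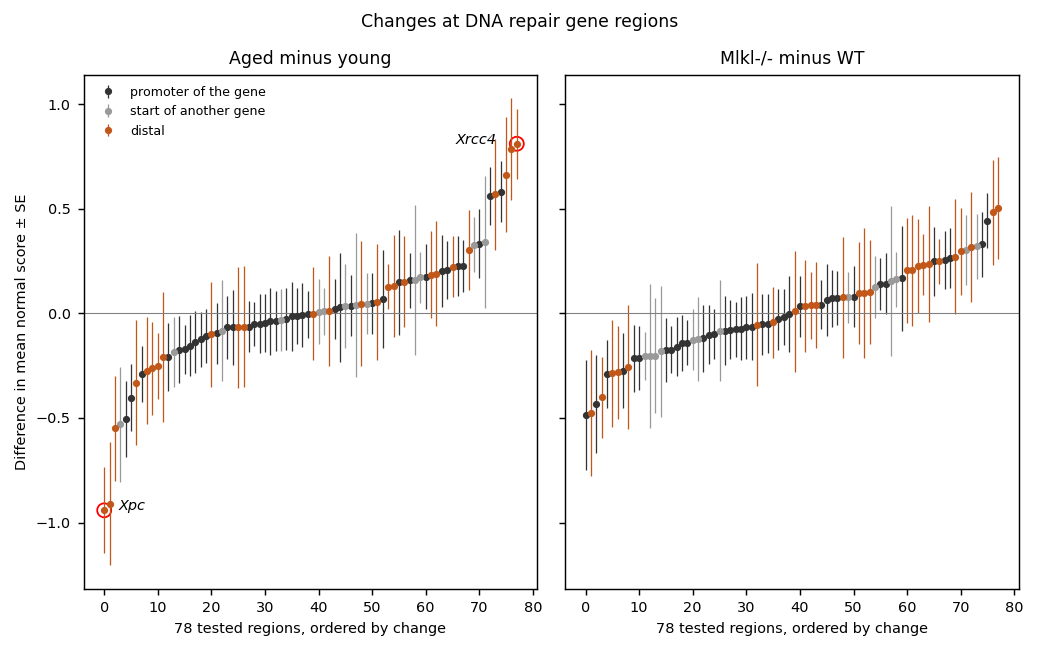
Difference in mean normal score ± SE for the 78 tested regions, ordered by size, for aged minus young (left) and Mlkl-/- minus WT (right), with point colour giving the kind of region. Red rings mark the 2 regions past an adjusted p of 0.01, Xrcc4 (0.81) and Xpc (−0.94). The right panel has none, and its changes stay between −0.49 and 0.50.

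Next to these stood 4 regions that did not pass the threshold. At the Xrcc1 promoter (chr7:24546745-24547325), chosen after its values were seen, normal scores were 2.17, 2.18 and 1.70 in young WT, 2.38, 2.09 and 1.69 in young Mlkl-/-, 2.63, 2.63 and 2.73 in aged WT, and 2.81, 2.43 and 2.48 in aged Mlkl-/- HSCs. All 6 aged values lay above all 6 young ones, by a difference in means of 0.58 ± 0.15 (adjusted p = 0.0221, limma). XRCC1 is the scaffold of single-strand break repair, and the region also held the start of Pinlyp. At the Ercc1 promoter (chr7:19344736-19345641), chosen in the same way, the young libraries ran from 0.64 to 1.52 and the aged from 1.33 to 1.92, a difference of 0.56 ± 0.14 (adjusted p = 0.0197). ERCC1 is a subunit of the nuclease that cuts on the 5′ side of a bulky lesion. The ranges overlapped through 1 young Mlkl-/- library.

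A Lig1 intron (chr7:13294030-13294959, 15.4 kb from the start) was present in 3 young and all 6 aged equal-length lists. Its normal scores were at the floor, 0.29 and at the floor in young WT, 0.31, 0.52 and at the floor in young Mlkl-/-, 0.92, 0.56 and 0.90 in aged WT, and 0.32, 0.75 and 0.82 in aged Mlkl-/- HSCs. The change was 0.79 ± 0.24 (adjusted p = 0.0597). LIG1 seals nicks in replication and in base excision repair. A Fancc intron (chr13:63394644-63395232, 36.8 kb from the start) went the other way, at 0.97, 0.87 and the floor in young WT and 0.93, the floor and 0.58 in young Mlkl-/-, with the floor in all 6 aged lists. It was tested only because of its 4 young lists, so no p is given for its difference from the floor, and 3 aged lists of full length still held it, with scores from 4.6 to 8.4. Bases at their summits (chr7:13294537-13294836 and chr13:63394780-63395079, plus strand) are shown beside the called sites, with the RUNX letters TGTGGTT and the CHR letters, on either strand, in capitals.
Lig1 intron: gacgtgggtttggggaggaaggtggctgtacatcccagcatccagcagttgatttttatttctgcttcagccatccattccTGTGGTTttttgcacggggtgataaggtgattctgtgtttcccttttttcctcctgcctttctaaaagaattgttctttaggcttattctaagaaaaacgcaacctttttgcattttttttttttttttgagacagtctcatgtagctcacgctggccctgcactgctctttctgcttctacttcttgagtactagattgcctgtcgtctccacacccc
Fancc intron: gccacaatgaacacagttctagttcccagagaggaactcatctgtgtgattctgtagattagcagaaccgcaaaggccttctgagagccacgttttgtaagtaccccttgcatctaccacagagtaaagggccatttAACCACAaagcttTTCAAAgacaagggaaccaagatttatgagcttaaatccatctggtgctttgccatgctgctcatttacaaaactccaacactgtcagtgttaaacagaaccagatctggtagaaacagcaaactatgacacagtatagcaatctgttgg
Each of the 2 windows held 1 RUNX match, and the Fancc window also 1 CHR match at the summit itself, whereas the Xrcc4 window held 1 CHR and the Xpc window no match.

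**Figure D3:**
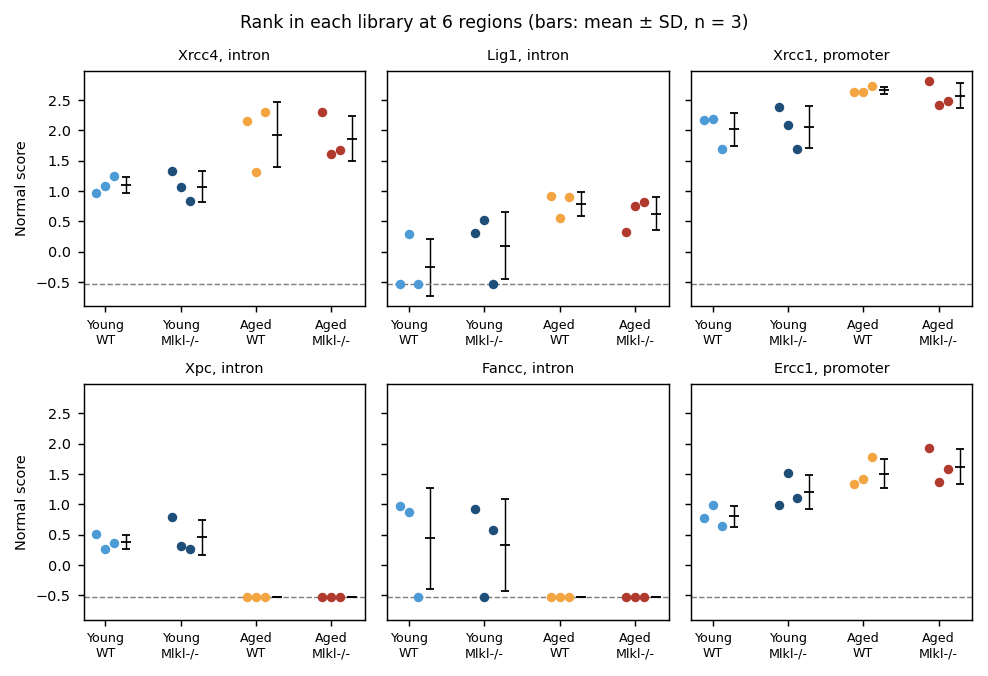
Normal scores (vertical axis) of the 3 libraries of each group at 6 repair gene regions, with bars giving mean ± SD (n = 3) and the dashed line the floor of uncalled regions. Aged points sit higher at the Xrcc4 and Lig1 introns and at the Xrcc1 and Ercc1 promoters, and at the floor in all 6 aged libraries at the Xpc and Fancc introns, with WT and Mlkl-/- side by side at each age.

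The region with the largest age change in each of the other roles did not pass the test. Among mismatch repair genes it was a Pms2 region over a coding exon (chr5:143917383-143917969), absent from all 6 young and present in 3 aged equal-length lists, at 0.56 in 1 aged WT and 0.28 and 0.98 in 2 aged Mlkl-/- libraries. It was tested only because of these 3 aged lists, so its values are given without a p. At the Trp53bp1 promoter young libraries ran from 1.17 to 1.83 and aged from 1.21 to 2.32 (0.33 ± 0.17, adjusted p = 0.242). The start of Bcas3, downstream of Ppm1d (chr11:85352320-85353369), stood at 1.46 to 2.22 in young and 1.91 to 2.29 in aged cells (0.33 ± 0.13, adjusted p = 0.145). For the kinases it was an intron of Hscb 3.85 kb from the Chek2 start (−0.10 ± 0.25), for the MRN complex a site downstream of Nbn (0.30 ± 0.19), and for homologous recombination a site in N4bp2l1 beyond Brca2 (−0.27 ± 0.25), with adjusted p of 0.853, 0.380 and 0.582.

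Within one genotype the age comparison called no repair gene region. In WT 0 of 78 were called, against 0.124% of all regions, and 6 of 78 had an unadjusted p under 0.05, against 14.6%. In Mlkl-/- 0 of 78 were called, against 0.157%, and 11 of 78 reached the unadjusted level, against 14.2%. The 6 in WT were the Xrcc4, Xpc, Lig1 and Fancc introns and the Ercc1 and Xrcc1 promoters. The Xrcc4 and Xpc introns and the Ercc1 and Xrcc1 promoters were also among the 11 in Mlkl-/- cells. These regions were named for their change over both genotypes, which is the mean of the WT and Mlkl-/- changes. Both comparisons also share an estimate of the spread, so the overlap is not separate evidence. At the Xpc and Fancc introns every aged value is the floor, so their place in these counts rests on the young ranks.

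Loss of Mlkl was not accompanied by a called change at any repair gene. In young cells, in aged cells and over the 2 ages together, 0 of 78 regions passed the threshold, as did 0% of all regions in each case. An unadjusted p under 0.05 was reached by 3 of 78 regions at 3 months (5.39% of all regions), 4 at 18 months (5.04%) and 3 over both ages (6.19%). No region passed the test of a difference in age change between the genotypes (0 of 78 and 0% of all), with 2 of 78 at the unadjusted level against 4.76%. WT and Mlkl-/- libraries failed to overlap at 0 of 78 regions, against 0.168% of all, and no repair gene region was all-or-none between genotypes at 3 months (1.09% of all) or at 18 months (1.08%).

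The lowest genotype p over both ages among the 78 regions was that of the Fanca promoter (chr8:123318215-123318898), chosen after its values were seen. FANCA is a subunit of the Fanconi core complex. Its normal scores were 0.95, 1.04 and 1.31 in young WT, 1.62, 1.75 and 1.18 in young Mlkl-/-, 1.33, 0.99 and 1.39 in aged WT, and 1.56, 1.93 and 1.60 in aged Mlkl-/- HSCs. Of the 6 Mlkl-/- values 5 lay above every WT value. The difference, Mlkl-/- minus WT, was 0.44 ± 0.13 (unadjusted p = 0.00366, adjusted p = 0.754, limma), so it failed the correction.

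The site downstream of Nbn (chr4:15995367-15995948) had the largest difference at 3 months. Its normal scores were 1.07, 0.87 and 1.22 in young WT, 0.63, 0.36 and the floor in young Mlkl-/-, 1.04, 0.95 and 0.59 in aged WT, and 0.87, 0.82 and 1.17 in aged Mlkl-/- HSCs. Young Mlkl-/- values lay below the other groups but for 1 aged WT library. The difference was −0.90 ± 0.27 at 3 months (adjusted p = 0.520) and 0.09 ± 0.27 at 18 months, and the test of the difference between these (0.99 ± 0.38) had an adjusted p of 0.966.

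For the other roles the largest genotype difference over both ages did not pass the test either. The Fancg promoter differed by −0.49 ± 0.26, with the floor in 1 young and 1 aged Mlkl-/- library and 0.41 to 0.97 in WT. The Ung promoter, at the floor in 1 young Mlkl-/- library, differed by −0.43 ± 0.24, and the promoter of Trp53bp1 by 0.25 ± 0.17. A site upstream of Xpa (chr4:46202081-46202736) was called in 3 of 6 Mlkl-/- and 0 of 6 WT equal-length lists, and since it was tested only because of those 3 lists no p is given for it. The Chek2-side intron of Hscb differed by 0.48 ± 0.25. The start of Snu13 beyond Xrcc6 differed by 0.32 ± 0.16, the Pms2 exon by 0.21 ± 0.26 and the site beyond Brca2 by −0.29 ± 0.25. Adjusted p lay between 0.756 and 0.881 (limma) for these regions other than the Xpa site and the Pms2 exon. The Pms2 exon was tested only because of 3 aged lists, so no p is given for it.

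The genes that damage itself induces showed no called change in either direction. GADD45A and GADD45B are stress sensors that bind PCNA, and PPM1D is the phosphatase that resets the checkpoint. The Gadd45a promoter (chr6:67035812-67037771) ran from 2.44 to 2.88 in young and 2.29 to 2.89 in aged libraries. Its age change was −0.07 ± 0.15, an interval (± 2 SE) of −0.37 to 0.24, and its genotype change −0.17 ± 0.15 (−0.48 to 0.13). The Gadd45b promoter (chr10:80929660-80930200) ran from 0.88 to 1.81 in young and 1.09 to 1.72 in aged libraries, with changes of 0.02 ± 0.14 with age (−0.27 to 0.31) and 0.27 ± 0.14 with genotype (−0.02 to 0.55). The Ppm1d promoter (chr11:85310791-85311696) ran from 0.75 to 1.64 in young and 0.47 to 1.39 in aged libraries, with changes of −0.21 ± 0.16 with age (−0.54 to 0.12) and −0.29 ± 0.16 with genotype (−0.62 to 0.04). The intervals leave room for shifts of that size on this rank scale.

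**Figure D4:**
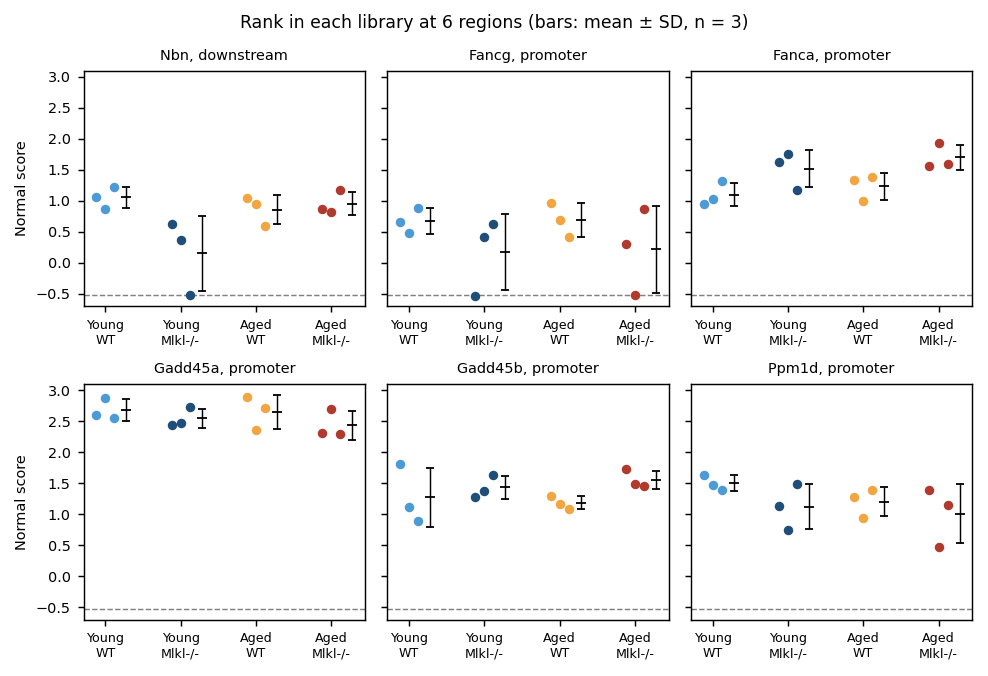
Normal scores (vertical axis) of the 3 libraries of each group at the site downstream of Nbn and at 5 promoters, with bars giving mean ± SD (n = 3) and the dashed line the floor of uncalled regions. The Mlkl-/- means are higher at Fanca (difference over both ages 0.44), with overlapping points at 3 months, and the young Mlkl-/- mean is lower downstream of Nbn (−0.90 at 3 months, 0.09 at 18 months), none past the threshold. The groups intermix at Gadd45a, Gadd45b and Ppm1d.

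A further list of 63 genes of the same pathways was measured beside them. It had 205 regions, 138 of them tested, and 57 of the 63 promoters were open in all 12 lists, against 49.2% of protein-coding genes. No region of it was called in any of the 7 contrasts. Of all regions, 2.65% were called with age over both genotypes, 0.124% with age in WT, 0.157% with age in Mlkl-/- and 0% in the others. With age over both genotypes 12 of 138 had an unadjusted p under 0.05 (limma), where 13 of 78 regions of the 38 genes and 22.1% of all regions did. The difference between the lists was not tested.

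The sequences under the summits were described by a search for short motifs, on either strand, in the 300 bases at each summit. No listed motif contains another. Matches to the NRF1 motif GCGCANGCGC were present at 20.5% of the 39 tested repair gene promoters, against 9.59% of all 12162 tested regions at protein-coding starts. The ETS motif CCGGAAG was present at 28.2% against 18.3%, the NF-Y motif CCAAT at 51.3% against 35.8%, and the SP/KLF motif GGGCGG at 76.9% against 69.5%. The AP-1 motif TGANTCA and the GATA motif AGATAA, at 4.65% and 3.62% of all such regions, were matched at 0 of 39. The p53 half-site was matched at 1 of the 39 promoters (2.56% against 1.21%). The CRE letters TGACGTCA (5.13% against 3.45%) and the E-box CACGTG (12.8% against 10.9%) differed little, as did RUNX (2.56% against 3.95%) and CHR (5.13% against 7.99%). Median GC content was much the same (64.7% and 65.0%), while the median ratio of observed to expected CpG was 0.87 against 0.81. Its part in the motif shares was not tested.

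In the 26 tested distal regions the RUNX motif was present at 26.9%, against 17.1% of 22563 tested regions away from starts, AP-1 at 19.2% against 16.6%, GATA at 11.5% against 15.9% and the CHR motif at 23.1% against 18.6%. SP/KLF was present at 3.85% against 13.6%, and the E-box at 0% against 6.13%. A match is a string of letters, not a bound site, and with 26 regions single matches weigh heavily, so these shares are descriptions without a test.

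**Figure D5:**
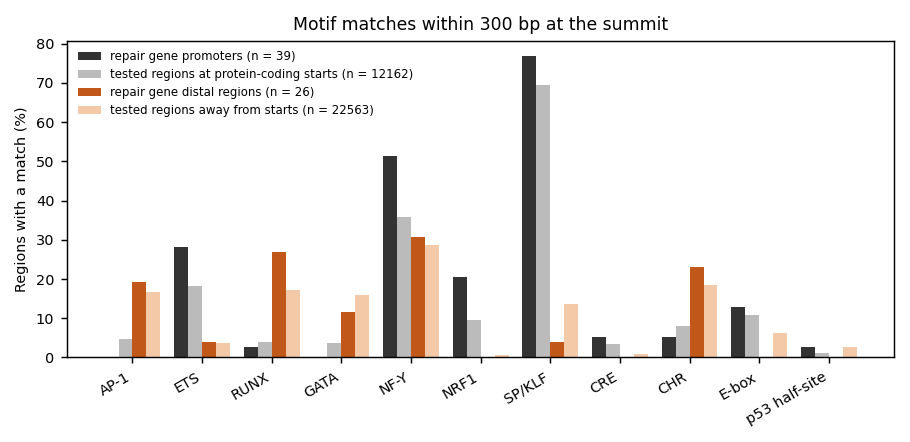
Share of regions (%) with at least 1 match of each motif in the 300 bases at the summit, for repair gene promoters (n = 39), all tested regions at protein-coding starts (n = 12162), repair gene distal regions (n = 26) and all tested regions away from starts (n = 22563). NRF1 (20.5% against 9.59%), NF-Y (51.3% against 35.8%) and ETS (28.2% against 18.3%) stand among the motifs with a higher share at repair gene promoters than at starts in general.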

How the data were processed

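Per the labels, nuclei of sorted bone marrow HSCs were tagmented and sequenced as single reads, and the authors aligned them to mm10 (submitters' notes name Bowtie2 2.5.3, MACS2 2.2.7.1, bedtools 2.31.0 and edgeR 3.30.3) with peak calling separate for every library. The deposited values are summit scores, the −log10 of a q-value. The lowest score was about 2 in every list, below the cutoff the methods state, so a minimum of 3 (q-value 0.001) was applied. The lists hold no reads, so depth is unknown and no count test was run.

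Regions were annotated with GENCODE on GRCm38. Groups were taken from the sample labels, and 7 contrasts among the 4 group means were fitted in limma 3.58.1 (R 4.3.3) on all 36296 tested regions. The fit was checked on simulated data that held no uncalled regions, so the check does not cover regions at the floor. Named regions were those past an adjusted p of 0.01, the largest age and genotype change in each of 10 roles, all-or-none regions, and the Gadd45a, Gadd45b and Ppm1d promoters. The genes, lists and tests were chosen with earlier results of these data known. Alternatives changed score minimum, list length, window, filter, scale, covariates and libraries. p-values measure the spread between pools. Sequences were read from GRCm38 by coordinate. Some marker genes are not reported here.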

Additional observations from a re-analysis of the deposited data

How the results depend on the processing

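The count of repair gene regions called with age over both genotypes (2) depended on the processing. It was 4 at an adjusted p of 0.05, where the Ercc1 and Xrcc1 promoters joined. It was 1, the Xrcc4 intron, with all deposited scores, with scores of at least 5, with a catalogue from equal-length summit lists, with windows of 100 bp, with regions called in at least 1 list or at least 6 lists, and with the replicate block, and it was 1, the Xpc intron, on the scale of percentiles. It was 0 with list length or the presence of Y-linked summits as a covariate, where 67 and 296 of 36296 regions in all were called. It was also 0 in the 9 libraries whose file names carry a further tag that the labels do not explain. There 242 of 33237 regions in all were called. Over every alternative on the normal score scale the change stayed between 0.62 and 0.96 at Xrcc4 and between −0.99 and −0.67 at Xpc. Leaving out 1 replicate at a time gave 0 to 1. With lists of unequal length it was 3 (the Xrcc4 and Fancc introns and the Ercc1 promoter), and with 2 kb in place of 10 kb on each side of a gene 2, the same regions. The cause of these shifts was not tested. The counts in the other 6 contrasts were 0 under every alternative run.

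Replicate numbers gave no sign of pairing: deviations of same-numbered libraries from their group means correlated by −0.03 on average (−0.31 to 0.13 over 18 pairs). The average for different numbers was 0.02 over 36 pairs. Deviations cancel within a group, so the second average follows from the first and is not separate evidence. The replicate block changed no other count. No alternative reversed the direction of a region past the threshold. At the Xpc intron every aged value at equal length is the floor, so a reversal could hardly occur there. Because the lists hold ranks of called peaks without reads, nothing below a list's cut was measured, and 3 pools per group limit the precision.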
